A study of Mus musculus with 4 samples.

Results

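The genes analysed here are 6 that are commonly used as reference genes in RT-qPCR, namely Actb, Actg1, Ppia, Ywhaz, Tbp and Gusb. They were picked by name, with earlier results of these data known, from the 56748 genes in the deposited tables. All 6 passed the filter on low counts that left 18157 genes to test. The RNA-seq data cover the mouse ES cell line E14, as a pair of libraries labelled WT (WT1 and WT2) and 1 library for each of the Npac knockout lines KO1 and KO2. Per the study's methods, the cells were grown without feeder cells in medium with serum and LIF, and the lines were picked as colonies after CRISPR/Cas9 editing with guide RNAs named for exon 3, so each KO line is 1 clone. Npac, listed in the tables as Glyr1, encodes a reader of the histone mark H3K36me3. The libraries held 15850805 (WT1), 16568283 (WT2), 16233971 (KO1) and 16965120 (KO2) counted reads. The labels do not say whether WT1 and WT2 came from separate cultures, so the spread between them may be technical. The spread between KO1 and KO2 is that between clones, with 1 library each. P-values measure the spread within these pairs.

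In RT-qPCR, the amount of a transcript is expressed relative to a reference transcript measured in the same RNA, so any change in the reference enters every result with the opposite sign. Housekeeping genes serve as references because most cells express them, but their products still belong to regulated systems. Actb and Actg1 encode the cytoplasmic β- and γ-actin, which polymerize into the filaments of the cytoskeleton. Ppia encodes cyclophilin A, a peptidyl-prolyl isomerase that helps proteins to fold. Ywhaz encodes 14-3-3 zeta, an adaptor that binds phosphorylated proteins, Tbp encodes the TATA-binding protein of the general transcription machinery, and Gusb encodes the lysosomal enzyme β-glucuronidase. The study used β-actin as the reference for its RT-qPCR, and the comparison here asks how stable each reference was between WT and Npac KO libraries.

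Actg1, Ppia and Actb rose in Npac KO cells, by 5.10-fold, 2.95-fold and 1.82-fold. Gusb was higher by 1.58-fold and missed the threshold, Ywhaz was at 1.26-fold, and Tbp was at 0.853-fold of the WT level. A gene was called when the Benjamini-Hochberg adjusted p of edgeR's quasi-likelihood test was under 0.05 and its fold change was over 1.5. By this rule 3 of the 6 rose and 0 fell (with an unadjusted p under 0.05 in its place 4 rose and 0 fell, and with DESeq2 3 rose and 0 fell), whereas 11% of all genes tested rose and 10.7% fell (1999 and 1946 genes). Among the 4784 genes tested with a mean of at least 50 CPM (counts scaled to library size by the TMM method), 14.1% rose. The number of calls across all genes depended on the libraries: it was 3477 up and 3311 down without WT2, 642 up and 606 down without KO1, and 671 up and 681 down without KO2. The 95% interval of the fold change reached beyond 1.5-fold in at least 1 direction for each of the 6 genes, so stability within 1.5-fold was not shown for any of them.

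Glyr1 checked the labels. Its reads numbered 3961 (WT1), 3115 (WT2), 744 (KO1) and 888 (KO2). Each KO library lay below each WT library (log2 fold change -2.14, standard error 0.23, adjusted p = 0.00174, edgeR). The markers of mouse ES cells were present: each of Pou5f1, Sox2, Nanog, Esrrb, Klf4, Zfp42 and Dppa5a had at least 10 reads in every library, and Dppa5a was the most abundant (log2 fold change 0.27, not called). Their summed level was 6310 and 4890 CPM in WT libraries and 4100 and 3980 CPM in KO libraries, and of the 7 genes Klf4 (log2 fold change -1.32) and Zfp42 (-2.64) fell, where 10.7% of all genes tested fell. Klf4 was not called without KO1, and 4 of the 7 were down without WT2, with Sox2 and Esrrb gained. Esrrb was also called by DESeq2, by total counts, without the filter on low counts and with the replicate number as a block. The KO libraries also stood apart from the WT libraries by chromosome. The log2 difference of each gene from the WT mean was taken in each KO library, and the median over all genes tested was subtracted. On this scale the median of the genes on chromosome 11 was 0.508 in KO1 and 0.483 in KO2. The median on chromosome 8 was 0.507 and 0.517. That on every other autosome and on X lay below 0, which in part follows from the subtraction. Actg1 and Ppia lie on chromosome 11. Both KO lines share these shifts, so the knockout and any earlier difference between the WT culture and the edited cells cannot be told apart.

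**Figure D1:**
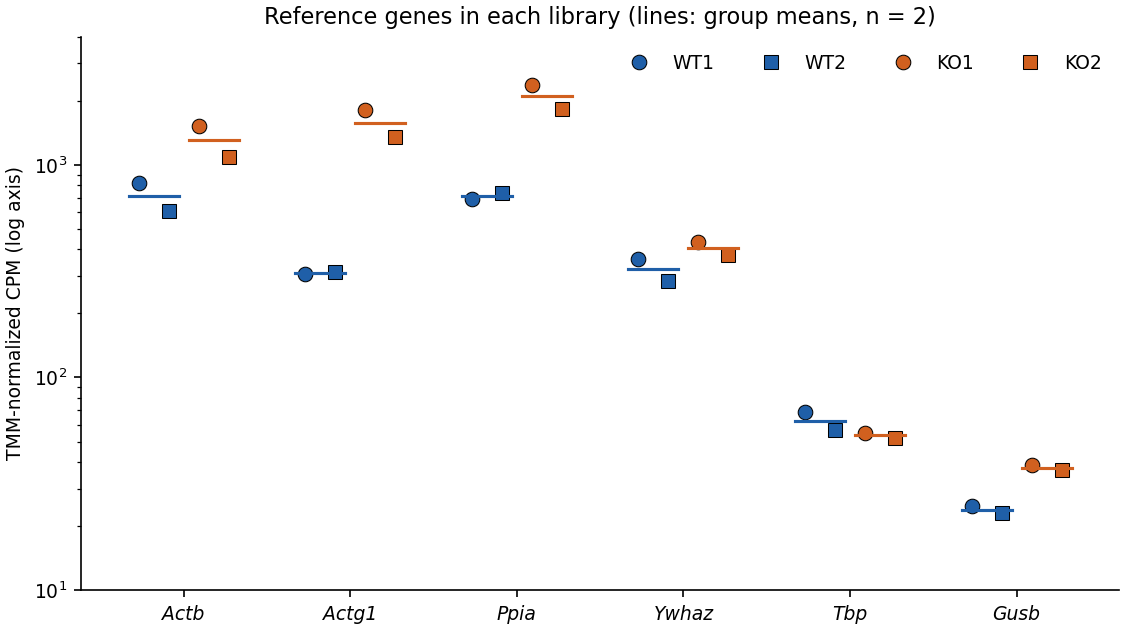
TMM-normalized CPM (log axis) of the 6 reference genes in WT1, WT2, KO1 and KO2, with horizontal lines for the group means (n = 2). Both KO points lie above both WT points for Actb, Actg1, Ppia, Ywhaz and Gusb and below them for Tbp, with the widest gap for Actg1 (306 and 313 against 1801 and 1353 CPM).

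Actb (ENSMUSG00000029580) spans chr5:142888870-142892509 on the minus strand, in the coordinates of the authors' files. The level of Actb was 824 CPM in WT1, 607 CPM in WT2, 1517 CPM in KO1 and 1085 CPM in KO2, from 12589, 10611, 23572 and 18787 reads. The groups did not overlap, but the libraries within each group differed by 0.44 (WT) and 0.48 (KO) on the log2 scale. The mean ± SD was 716 ± 153 CPM for WT and 1301 ± 305 CPM for Npac KO (n = 2 each). On the log2 scale the fold change was 0.86 (standard error 0.25, 95% interval 0.29 to 1.44, adjusted p = 0.0436, edgeR), which is close to the threshold. Without KO1 the log2 fold change was 0.588 (adjusted p = 0.318), and without KO2 it was 1.08 (adjusted p = 0.0587), so the call rested on having both KO libraries. With each KO library set alone against the WT pair, the log2 fold change of Actb was 1.08 in KO1 and 0.60 in KO2. A single library has no spread of its own, so no call is made for either line. Among genes with a mean of at least 50 CPM, 82.8% had a smaller absolute log2 fold change than Actb.

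The β-actin primers of the study are shown because every RT-qPCR value relative to β-actin rests on the part of Actb they amplify. A capital marks the base that did not match the Actb transcript of the GENCODE annotation.

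β-actin forward primer: atgacgatatcgctgcgctggtc

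β-actin reverse primer: gGccacgatggaggggaatac

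The forward primer has 23 bases and matched Actb with 0 mismatches, at chr5:142905660-142905682 in GRCm38. The reverse primer has 21 bases and matched at chr5:142905579-142905599 with 1 mismatch, written G2C (the primer's base, its position from the 5′ end of the primer, and the base of the transcript read on the same strand). Both lie in exon 2 of the 6 exons of this transcript, inside the coding sequence, and enclose a product of 104 bases. The closest site in Actg1 had 6 mismatches to the forward and 5 to the reverse primer. Among the muscle actins Acta1, Acta2, Actc1 and Actg2, the forward primer had 8 or 9 mismatches and the reverse primer 3 or 4. Of the genes compared, Actb had the fewest mismatches, so the RT-qPCR reference is set here beside the Actb row of the count table.

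Actg1 (ENSMUSG00000062825) spans chr11:120236516-120239368 on the minus strand in the authors' files. The level of Actg1 was 306 CPM in WT1, 313 CPM in WT2, 1801 CPM in KO1 and 1353 CPM in KO2, from 4667, 5467, 27987 and 23425 reads. The WT libraries were nearly equal, and the lower KO library was still more than 4 times the higher WT library. The mean ± SD was 309 ± 5.18 CPM for WT and 1577 ± 316 CPM for Npac KO (n = 2 each). On the log2 scale the fold change was 2.35 (standard error 0.22, 95% interval 1.84 to 2.86, adjusted p = 0.0011, edgeR). The log2 fold change was 2.54 in KO1 alone and 2.13 in KO2 alone (1 library each). Among genes with a mean of at least 50 CPM, 98.6% had a smaller absolute log2 fold change than Actg1. With the median of its chromosome removed from each KO library, the log2 fold change was 1.85 (adjusted p = 0.00247, edgeR).

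The balance between both cytoplasmic actins changed in Npac KO cells. Per length, on the deposited FPKM scale, Actb stood at 306 and 225 FPKM in the WT libraries and Actg1 at 114 and 117 FPKM. In the KO libraries Actb stood at 564 and 398 FPKM and Actg1 at 675 and 500 FPKM. The ratio of Actg1 to Actb was therefore 0.374 in WT1 and 0.519 in WT2 but 1.2 in KO1 and 1.26 in KO2, with Actb the more abundant transcript in both WT libraries and Actg1 in both KO libraries. The muscle actins Acta1, Acta2, Actc1 and Actg2 had at most 9 reads in any library, and none of the 4 passed the filter on low counts.

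RefSeq promoter sequences of build GRCm38.p6 (250 bases before to 50 after the start) matched 4 of the 6 genes, namely Actg1, Ppia, Tbp and Gusb. They were searched on both strands for the CArG box, the element bound by serum response factor (SRF), a known regulator of actin genes, and for TATAAA. The CArG box was found in 1.63% and TATAAA in 13.6% of the 32851 promoters in the table. The windows from position -120 to -1 relative to the start are shown for the 2 members on chromosome 11, both of which rose, with the motif in capitals: a CArG box beginning at position -90 for Actg1 (chr11:120348496-120348615, minus strand) and TATAAA beginning at position -29 for Ppia (chr11:6415747-6415866, plus strand).

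Actg1 promoter: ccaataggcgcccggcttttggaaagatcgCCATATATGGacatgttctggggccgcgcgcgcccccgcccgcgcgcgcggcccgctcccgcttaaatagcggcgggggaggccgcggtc

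Ppia promoter: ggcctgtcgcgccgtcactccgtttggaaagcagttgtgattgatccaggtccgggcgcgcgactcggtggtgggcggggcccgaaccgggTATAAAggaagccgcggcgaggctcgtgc

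Neither motif was found in the promoters of Tbp and Gusb. A match shows the letters only and was not tested as a binding site. Of 21 genes listed as SRF, its cofactors or its known targets, 20 were tested, with 3 up, 4 down and a median log2 fold change of -0.0712 (all genes tested, 11% up, 10.7% down and a median of 0.0015). The smooth muscle genes Myl9 (log2 fold change 2.57) and Cnn1 (2.27), which encode a myosin light chain and calponin, rose from low levels of 14 to 32 reads in the WT libraries to 105 to 126 reads in the KO libraries. Cnn2, another calponin, rose by 0.74. The immediate early genes Junb (-2.07) and Fos (-1.72) and the transgelin Tagln2 (-0.91) fell, as did Ier2 (-0.80). Of these 7 calls, 6 were lost without KO1, which left Junb, and 3 without KO2 (Tagln2, Cnn2 and Ier2). There were 4 up and 5 down without WT1, where Ier2 was lost, and 6 up and 4 down without WT2. Nor was Ier2, on chromosome 8, called with TMM from genes outside chromosomes 8 and 11 or on FPKM with limma-trend. Cnn2 was not called by total counts. Tpm1, a tropomyosin, stood at 0.02 (adjusted p = 0.955), Cnn3 at -0.17, Tpm4 at -0.29, and Srf itself at -0.28 (adjusted p = 0.357, edgeR).

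Of 29 genes for proteins that bind or nucleate actin, 4 rose and 1 fell, against 11% and 10.7% of all genes tested, and their median log2 fold change was -0.0518. Pfn1 encodes profilin, which delivers actin monomers to growing filaments. Its level was 140 and 112 CPM in the WT libraries and 384 and 290 CPM in the KO libraries (log2 fold change 1.42, adjusted p = 0.00602, edgeR). Capza1, a capping protein subunit, rose from 40.5 and 39.9 to 99.9 and 93.5 CPM (log2 fold change 1.27). Arpc5 (0.70) and Actr2 (0.66), subunits of the Arp2/3 complex that starts filament branches, rose less. Pfn2, the other profilin measured, fell from 26.0 and 31.6 to 10.6 and 12.1 CPM (-1.34). Pfn1 and Actr2 lie on chromosome 11, and Actr2 was no longer called with the chromosome median removed. Cfl1, which encodes cofilin and disassembles filaments, stood at 0.11 (adjusted p = 0.69), a gene chosen after its value was seen, and Tmsb10, Arpc1b and Capza2 stood at 0.03, -0.05 and 0.07. Of the 29 genes, 24 were not called. Pfn2, Actr2 and Arpc5 were not called without KO1 or without KO2, and Actr2 was not called without WT2. There were 6 up and 4 down without WT1 and 5 up and 2 down without WT2.

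Ppia (ENSMUSG00000071866) spans chr11:6365443-6369817 on the plus strand in the authors' files. The level of Ppia was 687 CPM in WT1, 736 CPM in WT2, 2369 CPM in KO1 and 1834 CPM in KO2, from 10494, 12858, 36822 and 31742 reads. The WT libraries lay close together and each KO library was more than 2 times as high. The mean ± SD was 712 ± 34.5 CPM for WT and 2102 ± 378 CPM for Npac KO (n = 2 each). On the log2 scale the fold change was 1.56 (standard error 0.21, 95% interval 1.07 to 2.06, adjusted p = 0.00406, edgeR). It was 1.74 in KO1 alone and 1.37 in KO2 alone (1 library each). With the median of chromosome 11 removed, the log2 fold change was 1.07 (adjusted p = 0.0137, edgeR). Of 16 other cyclophilin genes, 0 rose and 2 fell by edgeR, against 11% and 10.7% of all genes tested, with a median of -0.234 (0 and 3 by DESeq2, 1 and 3 at an unadjusted p under 0.05). The genes that fell were Ppwd1 (log2 fold change -1.17), a spliceosome-associated cyclophilin, and Ppil6 (-1.54). Both calls were lost without KO1 and without KO2, that of Ppil6 also with the chromosome median removed. There were 5 genes down without WT1, and 2 up and 4 down without WT2. Ppib, the cyclophilin of the endoplasmic reticulum, went from 86.0 and 95.2 to 63.0 and 61.8 CPM and was not called (-0.54, adjusted p = 0.0643). Ppie stood at 0.03, Ppil1 at 0.04 and Ranbp2 at -0.04.

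Ywhaz (ENSMUSG00000022285) spans chr15:36771014-36797173 on the minus strand in the authors' files. The level of Ywhaz was 361 CPM in WT1, 283 CPM in WT2, 433 CPM in KO1 and 378 CPM in KO2. The higher WT library lay just below the lower KO library, and the gap between them was smaller than that between WT1 and WT2. The mean ± SD was 322 ± 54.8 CPM for WT and 405 ± 38.9 CPM for Npac KO (n = 2 each). On the log2 scale the fold change was 0.33 (standard error 0.20, 95% interval -0.14 to 0.80, adjusted p = 0.269, edgeR). The interval does not exclude a rise of up to 1.74-fold, and leaving out single libraries gave log2 fold changes from 0.166 to 0.485. Of the 6 other 14-3-3 genes, 2 rose and 1 fell, against 11% and 10.7% of all genes tested. Sfn (14-3-3 sigma) rose from 5.50 and 12.7 to 71.4 and 63.4 CPM (log2 fold change 2.89), and Ywhae (14-3-3 epsilon), which lies on chromosome 11, rose as well (1.25). Ywhab (14-3-3 beta) fell by 0.59, at the edge of the fold threshold, with an adjusted p of 0.0471, and was not called without KO1, without KO2 or without WT1. Nor was it called with upper-quartile factors, with TMM from genes outside chromosomes 8 and 11, without the filter on low counts, or with the chromosome median removed. Ywhaq stood at 0.23, Ywhah at 0.24 and Ywhag at -0.09, with adjusted p of 0.379, 0.381 and 0.801 (edgeR).

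Tbp (ENSMUSG00000014767) spans chr17:15720150-15748641 on the plus strand in the authors' files. The level of Tbp was 68.8 CPM in WT1, 56.6 CPM in WT2, 54.7 CPM in KO1 and 52.1 CPM in KO2, from 1050, 988, 850 and 902 reads. WT1 stood highest, and WT2 was within 2 CPM of KO1. The mean ± SD was 62.7 ± 8.63 CPM for WT and 53.4 ± 1.82 CPM for Npac KO (n = 2 each). On the log2 scale the fold change was -0.23 (standard error 0.19, 95% interval -0.67 to 0.21, adjusted p = 0.418, edgeR), and leaving out single libraries gave values from -0.365 to -0.112. Tbp had the smallest absolute log2 fold change of the 6 genes in this fit. The interval still allowed a level as low as 0.627 of that in WT. Of 23 tested genes for TFIID subunits and other partners of TBP, 0 rose by edgeR, by DESeq2 and at an unadjusted p under 0.05, and 1 fell, Brf1 (-0.94), a subunit of the RNA polymerase III factor TFIIIB. Of all genes tested, 11% rose and 10.7% fell. Brf1 was not called without KO1 or without KO2, while 2 of the genes were down without WT1 and 4 without WT2. The median of the 23 genes was -0.0104, and Taf10 stood at 0.07, Gtf2a1 at 0.07 and Drap1 at 0.09.

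Gusb (ENSMUSG00000025534) spans chr5:130017852-130031890 on the minus strand in the authors' files. The level of Gusb was 24.8 CPM in WT1, 23.0 CPM in WT2, 38.8 CPM in KO1 and 36.6 CPM in KO2, from 379, 401, 603 and 633 reads. The libraries within a group agreed closely and the groups did not overlap. The mean ± SD was 23.9 ± 1.32 CPM for WT and 37.7 ± 1.57 CPM for Npac KO (n = 2 each). On the log2 scale the fold change was 0.66 (standard error 0.20, 95% interval 0.19 to 1.12, adjusted p = 0.0525, edgeR), just short of the threshold, and it passed without WT1 (0.686, adjusted p = 0.0146) and without WT2 (0.602, adjusted p = 0.0234). It did not pass without KO1 (0.6, adjusted p = 0.389) or without KO2 (0.7, adjusted p = 0.282). With the replicate number as a block the adjusted p was 0.0247. Of 20 genes for other lysosomal hydrolases, 2 rose and 2 fell, against 11% and 10.7% of all genes tested, with a median of -0.0925. With the replicate number as a block 5 rose and 4 fell, and without the filter on low counts 4 rose and 5 fell. At an unadjusted p under 0.05 there were 5 up and 5 down. Man2b1 (log2 fold change 1.59), an α-mannosidase, and Hgsnat (1.34), an enzyme of heparan sulfate breakdown, rose, and both lie on chromosome 8. Hexa (-1.39) and Arsa (-0.98), which act on glycolipids, fell. Hexa, Arsa and Hgsnat were not called without KO1, and Arsa was not called without KO2. There were 4 up and 4 down without WT1 and 3 up and 7 down without WT2. Gaa stood at 0.24 and Glb1 at 0.25.

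The order of the 6 genes also changed. By FPKM, which divides by length, the WT order was Actb (306 and 225), Ppia (195 and 208), Actg1 (114 and 117), Ywhaz (87.1 and 68.2), Gusb (5.42 and 5.003) and Tbp (5.03 and 4.13). In WT the ranges of Gusb and Tbp met, while the other neighbours did not overlap. In the KO libraries Ppia (673 and 514 FPKM), Actg1 (675 and 500 FPKM) and Actb (564 and 398 FPKM) overlapped, and Ywhaz (105 and 90.03 FPKM), Gusb (8.50 and 7.90 FPKM) and Tbp (4.01 and 3.77 FPKM) followed without overlap. The FPKM of Tbp rests on a listed gene length of 13576 bases, against 2658 to 4548 bases for the other 5 genes.

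Reads can be lost to near-identical processed pseudogenes, of which blastn found 38 for Ppia, 11 for Actg1, 5 for Actb, 3 for Ywhaz and 0 for Tbp and Gusb. The copies of Actb had 0 reads in every library. Those of Actg1 took 80, 84, 498 and 365 reads in WT1, WT2, KO1 and KO2, a share of the family between 1.51% and 1.75%. Most of them fell on Gm12715, with 68, 59, 400 and 296 reads, and which rose with its parent (log2 fold change 2.45).

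The copies of Ppia took 3381, 1319, 3945 and 6103 reads, or 24.4%, 9.30%, 9.68% and 16.1% of the family. Gm10123, whose aligned part is 100% identical to Ppia, accounted for 3050, 943, 3280 and 5398 of these reads. The libraries of 1 group differed in this more than the groups did, so the split between Ppia and Gm10123 was uncertain. The sum of parent and copies was 13875, 14177, 40767 and 37845 reads, and the log2 fold change of the sum was 1.48 (adjusted p = 0.00427, edgeR), close to that of Ppia alone.

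The copies of Ywhaz held 694 and 499 reads in WT1 and WT2 but 110 and 99 in KO1 and KO2, or 11.2%, 9.15%, 1.61% and 1.49% of the family. Gm4202 (526, 337, 86 and 80 reads, log2 fold change -2.40) and Gm14287 (168, 162, 24 and 19 reads, -2.94) both fell. Added to Ywhaz, they brought its log2 fold change from 0.33 to 0.20 (adjusted p = 0.525, edgeR). Whether these are transcripts of the copies or reads of Ywhaz placed on them was not tested. Of genes that overlap a member in the files' coordinates, Pdcd2, on the strand opposite to Tbp, was listed at 0 reads in all 4 libraries, as were 2 microRNA genes within Actg1. How reads in the overlap with Pdcd2 were counted is not known, so the Tbp count is uncertain to that extent.

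**Figure D2:**
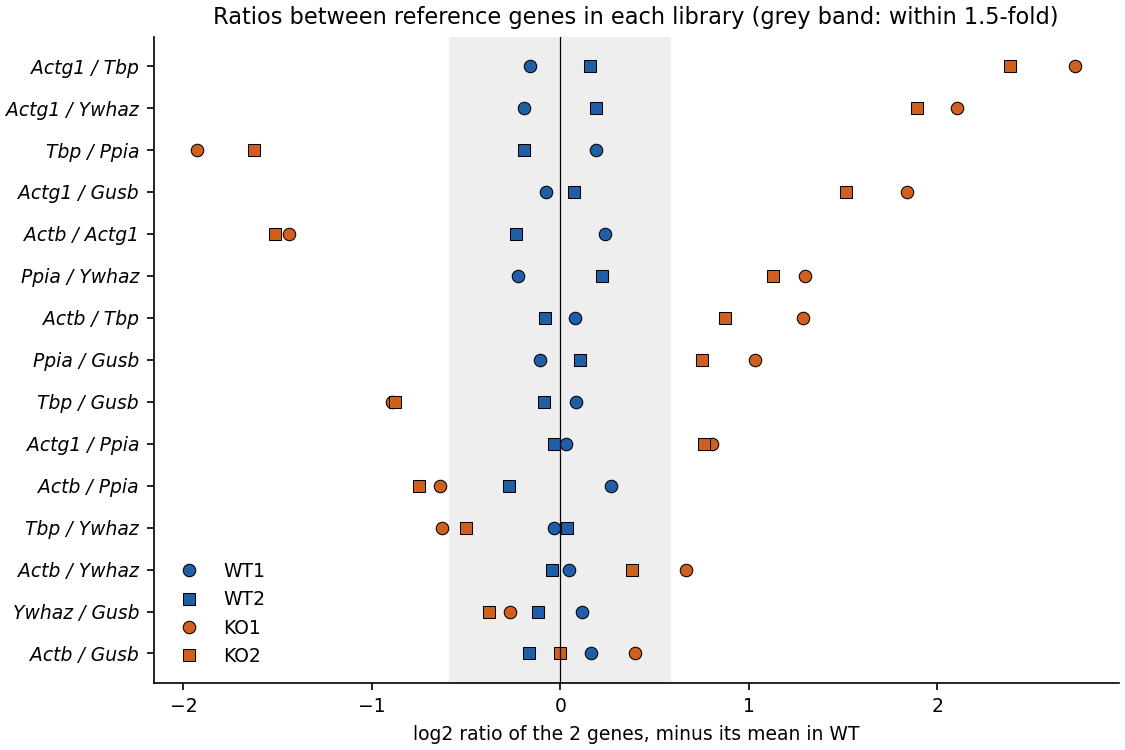
For each of the 15 pairs of reference genes, the log2 ratio in each library minus its mean in WT (WT blue, KO orange, grey band within 1.5-fold). The KO points leave the band for most pairs and reach beyond 2 for Actg1 over Tbp, whereas for Actb over Gusb the WT and KO points are mixed.

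A ratio between 2 reference genes does not depend on how the libraries are scaled. Of the 15 pairs, 11 changed by more than 1.5-fold between the group means, and in 14 the WT and KO libraries did not overlap. How often pairs of other genes did so was not measured, so these counts do not set the 6 genes apart. A comparison of 2 against 2 libraries cannot reach p = 0.05 in an exact permutation test (the smallest two-sided p is 0.333), so the ratios are given as a description. The ratio of Actg1 to Tbp changed by 5.9-fold, from log2 ratios of 2.15 and 2.47 in the WT libraries to 5.04 and 4.70 in the KO libraries. The ratio of Actb to Tbp rose by 2.12-fold and that of Actb to Ywhaz by 1.44-fold. The ratio of Actb to Gusb was the pair whose groups overlapped, with log2 ratios of 5.05, 4.73, 5.29 and 4.89 in WT1, WT2, KO1 and KO2. Averaged over the other 5 genes, the SD of the log2 ratio over the 4 libraries was lowest for Gusb (0.497) and Actb (0.51), followed by Ywhaz (0.553), Ppia (0.644), Tbp (0.806) and Actg1 (0.993). Ranked by mutual ratios, Gusb and Actb thus came first and Tbp next to last, whereas by the log2 fold change of the TMM fit with all 4 libraries Tbp moved least of the 6. Ywhaz moved less than Tbp without WT2 (0.166 against -0.365), without KO1 (0.215 against -0.279) and with the reads of processed pseudogenes added (0.197 against -0.229). The mutual ranking favours genes that moved with the majority, and 5 of the 6 genes had a positive log2 fold change.

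The choice of reference gene set the number and the direction of calls. When the libraries were scaled to Actb in place of TMM, 477 genes rose and 5857 fell, and the median log2 fold change of all genes tested moved by -0.851. Scaled to Ppia, 370 rose and 13616 fell (median moved by -1.54), and scaled to Actg1, 167 rose and 16065 fell (by -2.32). Scaled to Gusb, 810 rose and 7113 fell (by -0.656), and scaled to Ywhaz, 869 rose and 2980 fell (by -0.342). Scaled to Tbp, 2611 rose and 1209 fell (by 0.22). The geometric mean of the 6 genes gave 625 up and 9406 down (by -0.914). The share of calls that were rises was 50.7% by TMM, 7.53% by Actb, 1.03% by Actg1, 2.65% by Ppia, 10.2% by Gusb, 22.6% by Ywhaz and 68.4% by Tbp. The gene used for scaling has a log2 fold change of 0 by construction, and the differences between libraries of 1 group in that gene enter each test.

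**Figure D3:**
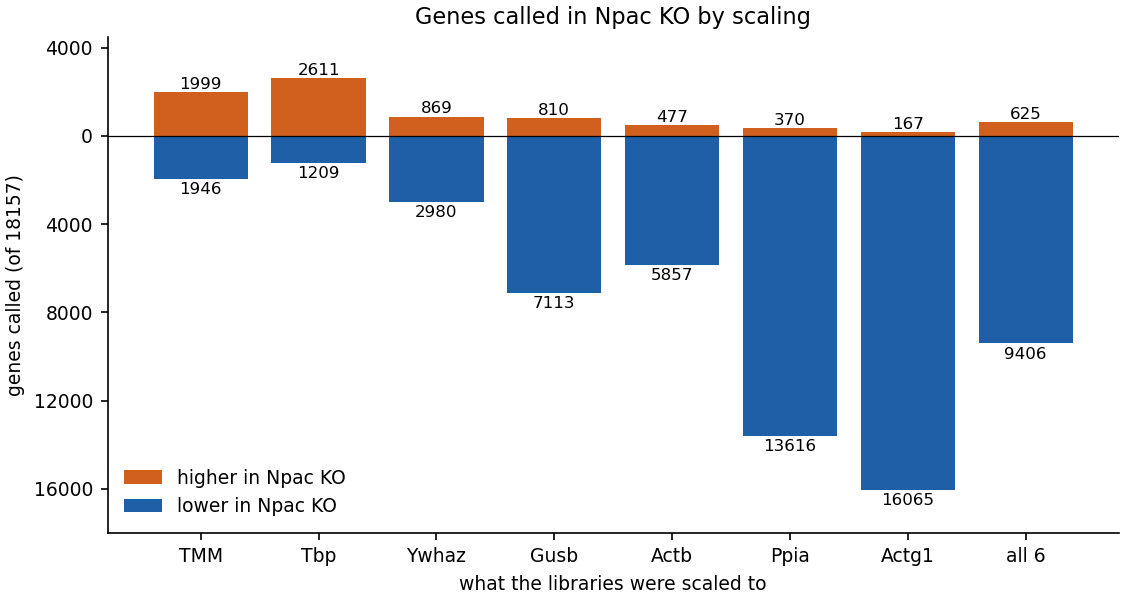
Number of the 18157 genes called higher (orange, upwards) or lower (blue, downwards) in Npac KO cells when the libraries were scaled by TMM, to 1 reference gene, or to the geometric mean of all 6. The bars are near equal by TMM (1999 and 1946) and almost all downwards by Actg1 (167 and 16065).

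The genes the study measured by RT-qPCR show what this means for single targets in RNA-seq, while the RT-qPCR values themselves were not analysed here. Pou5f1, which encodes Oct4, had 840 and 688 CPM in the WT libraries and 600 and 538 CPM in the KO libraries. Its log2 difference between group means was -0.42 by TMM, -1.28 relative to Actb, and -0.196 relative to Tbp. Sox2, another core pluripotency factor, was at -0.521 by TMM and -1.38 relative to Actb. Nanog was at -0.213 by TMM, -1.07 relative to Actb and 0.0113 relative to Tbp. None of these pluripotency factors passed both thresholds by TMM with all 4 libraries (adjusted p = 0.157, 0.169 and 0.491 from edgeR), but Sox2 was called without WT2.

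Nodal, a TGF-β family ligand, had 42.6 and 32.5 CPM in the WT libraries and 68.6 and 74.9 CPM in the KO libraries and was called as rising by TMM (adjusted p = 0.0187, edgeR). Its log2 difference was 0.945 by TMM but 0.0868 relative to Actb and -0.606 relative to Ppia. Nes, which encodes the neural progenitor filament nestin and was chosen after its values were seen, went from 1.05 to 0.189 relative to Actb. Bmp4, a BMP ligand, was negative under each scaling, from -2.75 relative to Tbp to -5.31 relative to Actg1, with -2.98 by TMM and -3.84 relative to Actb. Glyr1 itself was between -1.89 relative to Tbp and -4.45 relative to Actg1. Of 18 genes on this list 16 were tested, of which 1 rose (Nodal) and 2 fell (Glyr1 and Bmp4), against 11% and 10.7% of all genes tested. Nodal was not called without KO1 or without KO2, and there were 3 up and 4 down without WT2, where Sox2, Hand1, Rest and Nes were gained.

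**Figure D4:**
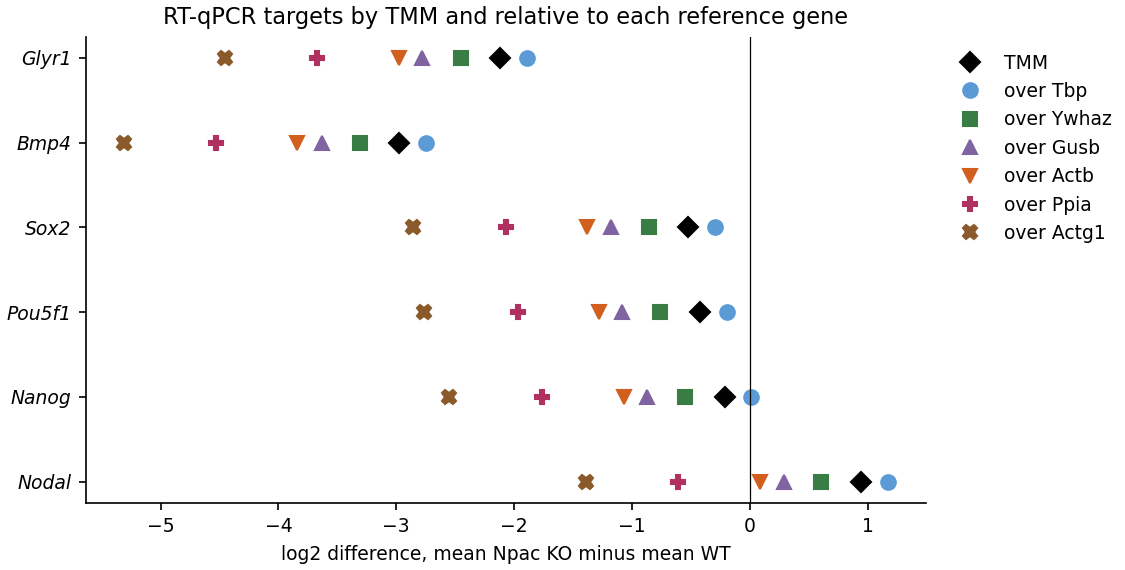
Log2 difference between the Npac KO and WT group means of 6 RT-qPCR targets, by TMM (black diamonds) and relative to each of the 6 reference genes (coloured symbols). For each target the values shift by the same amounts, so Bmp4 and Glyr1 stay negative while Nodal runs from 1.17 relative to Tbp to -1.39 relative to Actg1.

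Other genes used as references gave a background for the 6. Of 40 such genes, 8 rose and 2 fell by edgeR's quasi-likelihood test, against 11% and 10.7% of all genes tested, and their median log2 fold change was 0.12. Hprt, a purine salvage enzyme, was counted 5 and 6 times in WT but 2932 and 2710 times in Npac KO cells (log2 fold change 8.97, adjusted p = 2.04e-05). Whether Hprt already differed between the WT culture and the edited cells before the knockout was not tested. Ldha, lactate dehydrogenase, rose from 467 and 521 to 1328 and 796 CPM (1.10), and Tuba1a, an α-tubulin, from 80.7 and 64.9 to 168 and 119 CPM (0.97). Rplp0, Tubb5, Canx, Vcp and Top1 also rose. Reep5, a membrane-shaping protein of the endoplasmic reticulum, fell from 68.6 and 98.0 to 30.9 and 34.6 CPM (-1.35), and Rab7, a GTPase of late endosomes, from 300 and 261 to 178 and 161 CPM (-0.73). Without KO1 only Hprt of these 10 was called, and without KO2 3 rose and 1 fell. There were 7 up and 4 down without WT1 and 10 up and 4 down without WT2. Canx, on chromosome 11, and Rab7 were not called with the chromosome median removed. On FPKM with limma-trend, Rplp0, Tubb5 and Top1 were not called, nor was Top1 with RLE scaling factors. Rplp0 and Top1 were not called without WT1, and Top1 was not called by DESeq2 or by total counts.

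In 7 of the 40 genes the 95% interval of the fold change lay within 1.5-fold, namely Rpl13a, Sdha, Ubb, Ipo8, Cyc1, Rpl4 and Psmb4. It did so in 0 of the 6. The share among all genes tested was not counted, so no contrast is drawn between these counts. Rpl4, a ribosomal protein gene, had 2865, 2947, 3103 and 2674 CPM in WT1, WT2, KO1 and KO2 (log2 fold change -0.01, 95% interval -0.47 to 0.45). Rpl13a, another ribosomal protein gene, had 91.7, 89.97, 97.3 and 82.5 CPM (-0.02), and Ipo8, a nuclear import receptor, 84.4, 72.9, 82.1 and 77.1 CPM (0.02). Gapdh, a glycolytic enzyme and a common reference, was not called (log2 fold change -0.67, adjusted p = 0.114), but was called without WT2 and had no more than 383 reads in any library. Its 184 pseudogene copies, of which 113 had reads, were looked at after this was seen. Together they held between 81.5% and 87.9% of the family's reads, so the Gapdh value rests on a small part of these reads.

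**Figure D5:**
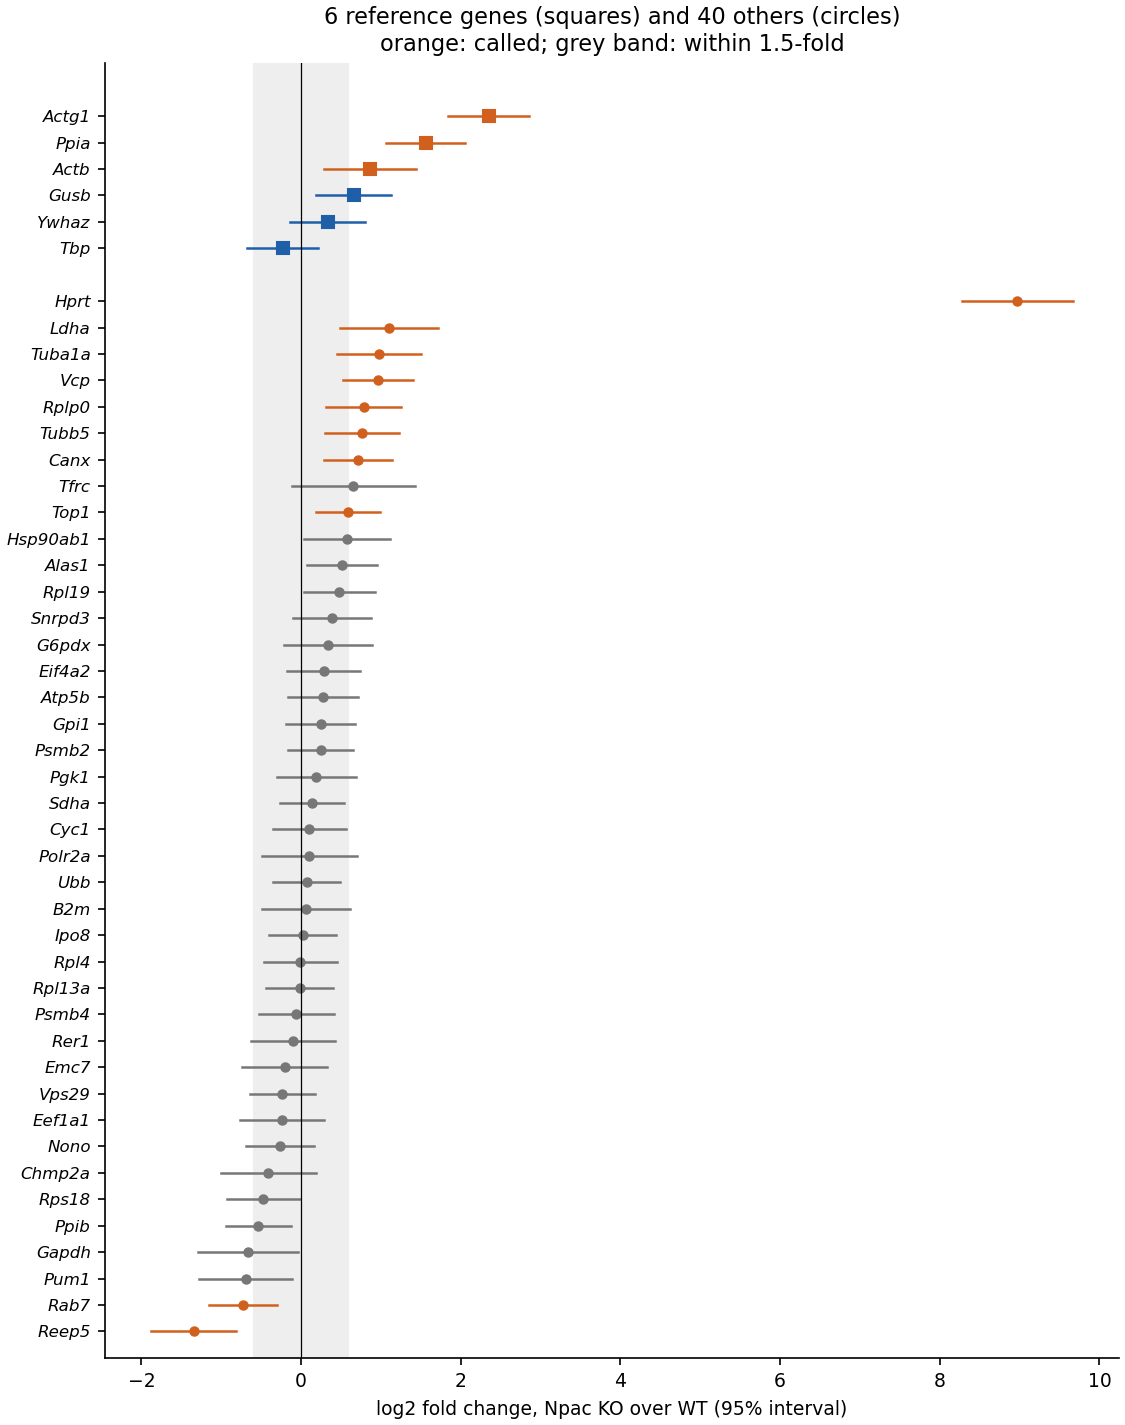
Log2 fold change in Npac KO over WT with its 95% interval for the 6 reference genes (squares) and 40 other reference genes (circles), in orange where called, with a grey band for changes within 1.5-fold. The estimates of Actg1, Ppia and Actb, and that of Gusb, which was not called, lie to the right of the band. No square has its interval inside it, and Hprt stands apart at 8.97.

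For each of the 6 genes, the genes with the most similar profile were those with the smallest SD, over the 4 libraries, of the log2 CPM difference to it, among genes with a mean of at least 50 CPM. With only 4 libraries in 2 groups, likeness mainly reflects a similar difference between the groups. Closest to Actb were Trp53 (SD 0.0401), Nudcd2 and Actl6a, and closest to Actg1 were Ahcy (SD 0.116), Gas5 and Haus4. Trp53, which encodes p53 and lies on chromosome 11, had 256, 200, 502 and 353 CPM in WT1, WT2, KO1 and KO2. Closest to Ppia were the noncoding RNA gene Platr14 (SD 0.00957), Camsap3 and Bst2. Closest to Ywhaz were Cdc23 (SD 0.0174), Helb and Adss, and closest to Tbp were Plod2 (SD 0.0124), Gfpt2 and Srsf7. Closest to Gusb were Fgfr1 (SD 0.0229), 2810004N23Rik and Xab2, which lie on chromosome 8. Camsap3 and Bst2 also lie on chromosome 8, and Nudcd2 and Gfpt2 lie on chromosome 11. The medians of both chromosomes stood higher in both KO lines.

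The steadiest genes of the 2350 with a mean of at least 100 CPM were Psmc3, Lsg1, Dgkd, Rrp1 and Dlst. Psmc3, a proteasome ATPase, had 169, 168, 170 and 168 CPM in WT1, WT2, KO1 and KO2, a range of 0.0173 on the log2 scale. Dlst, an enzyme of the citric acid cycle, had 186, 185, 180 and 178 CPM, the widest range of these 5 genes at 0.0621. Among the 6 reference genes this range was 0.40 for Tbp, 0.61 for Ywhaz, 0.76 for Gusb, 1.32 for Actb, 1.79 for Ppia and 2.56 for Actg1. The steadiest genes were picked on these 4 libraries, so their range here is a description and no sign of stability elsewhere.

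Since actins differ in level between cell types, and since fewer cells of a type and less RNA per cell cannot be told apart in bulk RNA, markers of other cell types were summed. The fibroblast markers Col1a1, Col1a2, Col3a1 and Thy1 summed to 35.8 and 59.0 CPM in the WT libraries and 45.0 and 50.6 CPM in the KO libraries. Thy1 was the most abundant of them (29.99, 49.1, 25.5 and 30.9 CPM), Col3a1 was at 0 reads in every library, and Col1a1, on chromosome 11, had 5.57 and 9.62 CPM in WT and 18.3 and 18.8 CPM in KO libraries (log2 fold change 1.29, adjusted p = 0.0308, edgeR). Col1a1 was not called without KO1, without KO2, with the chromosome median removed, or on FPKM with a pseudocount of 0.1. The endoderm markers (Gata4, Gata6 and Sox17) summed to 8.38 and 14.7 CPM in WT and 12.2 and 18.5 CPM in KO libraries, with Gata4 the most abundant. The mesoderm markers T and Mixl1 summed to 1.05 and 1.49 CPM in WT and 2.19 and 2.08 CPM in KO libraries. The neural markers Sox1 and Pax6 summed to 29.6 and 14.6 CPM in WT and 5.15 and 6.76 CPM in KO libraries, and Sox1 fell (log2 fold change -2.34). Pax6 had 1.83 and 1.202 CPM in WT and 1.67 and 2.14 CPM in KO libraries (log2 fold change 0.33, not called). The part of such cells in the levels of the reference genes was not tested.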

How the data were processed

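RNA-seq of 2 WT and 2 Npac KO libraries of E14 cells was used. The authors deposited unnormalized read counts for each gene, and FPKM values, which equal these counts over gene length and a scaled library size. The submitters' processing notes name CASAVA, HISAT2 2.0.5, featureCounts 1.5.0-p3 and mm10. Gene coordinates are given as in the files, where 2.76% of 52073 shared genes had the coordinates of the GENCODE annotation of GRCm38, so the build of the files is uncertain and primer and promoter positions (GRCm38) are not on the same scale. Whether strand was used in counting is not given in the sources used here, nor is the treatment of reads that map to several places, so genes with overlapping genes or near-identical copies are uncertain.

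The main test was the quasi-likelihood test of edgeR 4.0.16 (R 4.3.3) on the counts, with TMM, filterByExpr and trended dispersion, with limma 3.58.1 and DESeq2 1.42.0 as alternatives. Calls needed a fold change over 1.5 and an adjusted p (Benjamini-Hochberg, 18157 genes) under 0.05, following the study's methods. The common biological coefficient of variation was 0.235. The spread between replicates exceeded counting error (chi-square per gene 41.9 for WT1 and WT2 and 13.1 for KO1 and KO2), so neither pair agreed within counting error. CPM are TMM-normalized, with mean and SD over 2 libraries, and fold changes and intervals come from the fit. For each KO line alone, WT, KO1 and KO2 were 3 groups and the spread came from the WT pair.

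Processed pseudogenes were matched with blastn 2.17.0+ (at least 90% identity, at least 60% of the copy aligned) against GENCODE transcripts. Primers came from the study's list of oligos. The members, gene lists and tests were chosen with earlier results of these data known. The genes named were the 6 members, Glyr1, the 3 genes most like each member (mean of at least 50 CPM), the 5 steadiest genes (mean of at least 100 CPM) and, of each list, the genes called if 5 or fewer, otherwise the 3 largest rises and falls, with the 3 smallest changes (mean of at least 50 CPM). Further genes were named to complete counts. RT-qPCR data and splicing were not analysed here, and some genes are not reported here.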

Additional observations from a re-analysis of the deposited data

How the results depend on the processing

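With 2 libraries a group, small changes could not be detected, and the spread is that between 2 libraries. Of the 6 reference genes, each kept its direction under each of 12 alternatives and when each library was left out. Actg1 (1.85 to 2.42), Ppia (1.07 to 1.64), Ywhaz (0.197 to 0.403) and Tbp (-0.254 to -0.132) also kept their side of the threshold under the 12. On FPKM with limma-trend, Actb missed the threshold, with a pseudocount of 1 (0.852, adjusted p = 0.0743) and of 0.1 (0.854, adjusted p = 0.0712). Gusb passed it with upper-quartile factors (0.692) and with TMM from genes outside chromosomes 8 and 11 (0.731), where 57.3% of calls were rises. When each library was left out, Actb ranged from 0.588 to 1.08 and Gusb from 0.6 to 0.7, and the number of genes called ranged from 642 to 3477 up and from 606 to 3311 down. A group left with 1 library was assumed to vary like the other group. Of the 10 calls among the 40 other reference genes, 9 were lost without KO1 and 6 without KO2.

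Scaled to Actb, 477 genes rose and 5857 fell, to Actg1 167 and 16065, to Ppia 370 and 13616, to Ywhaz 869 and 2980, to Gusb 810 and 7113, and to the geometric mean 625 and 9406. Scaled to Tbp 1209 fell. These differences follow from the construction, since the reference gene is set to 0.

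The replicate numbers are shared by WT and KO libraries, but 2 pairs do not show that the numbers pair the libraries (same-numbered libraries deviated together with a correlation of 0.332 across genes). With the replicate block, 3128 genes rose and 2994 fell, Gusb passed the threshold (0.658, adjusted p = 0.0247), and no other of the 6 changed its call. Among the 40 other reference genes, 9 rose and 3 fell with the block, 7 and 2 with DESeq2, and 5 and 2 with limma-trend on FPKM.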
